A study of Homo sapiens with 6 samples.

Results

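The 44 genes described here make and use glutathione, or carry out the parallel work of thioredoxins and peroxiredoxins, and include the transcription factor NRF2 with its inhibitor and several of its targets. They were taken by symbol from a fixed list, and each of the 44 matched 1 of the 61487 gene IDs counted. RNA was sequenced from K562, an established human chronic myeloid leukaemia line labelled as myeloblasts. 3 libraries came from cells sensitive to azacitidine and 3 from resistant cells, which had been derived from the sensitive line by exposure to rising drug concentrations over months. The comparison asked how RNA levels differed between the resistant and the sensitive cells. No drug treatment is given for either group at harvest. Azacitidine is a cytidine analogue that enters RNA and DNA and traps DNA methyltransferases.

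The labels name 1 resistant derivative of 1 line, so resistance cannot be told apart from other changes that arose in that population. They call the libraries biological replicates without saying that the cultures were kept apart, so the p-values measure only the spread between these libraries. In bulk RNA, fewer cells that express a gene and less of its RNA per cell cannot be told apart.

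Glutathione is a cysteine-containing tripeptide that reduces peroxides and is joined to reactive compounds to make them soluble. Glutathione S-transferases (GSTs) catalyse the joining, glutathione peroxidases use glutathione to reduce peroxides, and thioredoxins pass electrons to peroxiredoxins, which do similar work. NRF2, encoded by NFE2L2, is the transcription factor that induces many of these enzymes. Its inhibitor KEAP1 holds it for degradation until oxidants or electrophiles modify KEAP1. Erythroid cells, many of whose genes K562 expresses, make haem and globin and are rich in catalase, superoxide dismutase and peroxiredoxin.

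Total counts ranged from 33007642 to 43006918 per library. Levels are in CPM, the count divided by the scaled library total and given per 1e6. The limit that a count of 0 allows, 3 counts, came to 0.0698 to 0.0909 per 1e6 of the unscaled totals. Erythroid markers such as GATA1 and KLF1 were present in each library. The summed level of 13 markers was 940.3 to 1886 CPM in sensitive cells and 1075 to 1804 CPM in resistant cells. The largest part was the transferrin receptor gene TFRC, at 325 to 1200 CPM in sensitive and 591 to 954 CPM in resistant cells. LMO2 was called lower (-0.94, edgeR adjusted p = 0.00583). HBE1 was at no more than 0.277 CPM in any library and was not tested, and the others were not called. The libraries numbered 3 stood apart in both groups. Of the 20891 genes tested, 22.8% had their highest value of each group in replicate 3 of both groups, and of the 40 tested members 20 (50%) did. Results are therefore also given without both of these libraries.

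Of the 44 genes, 40 passed the filter on low counts and were tested. With edgeR's quasi-likelihood test at an adjusted p below 0.05, 5 were higher in resistant cells and 5 were lower. Each count is 12.5% of the tested members, beside 9.83% of all tested genes called higher and 13.1% called lower. The higher genes were GSTM2, GSTM4, GSTT2B, GPX1 and GPX3, and the lower genes were MGST1, MGST2, GSTM3, GSS and NFE2L2. The 3 resistant libraries all lay above the 3 sensitive ones for 6 members and all below them for 11, where 18.7% and 21.4% of all tested genes did so. The median log2 fold change, resistant over sensitive, was -0.03 over the members and 0.03 over all tested genes. In this fit the shares called among the members were thus close to those among all genes, and what stood out were single genes within families.

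**Figure D1:**
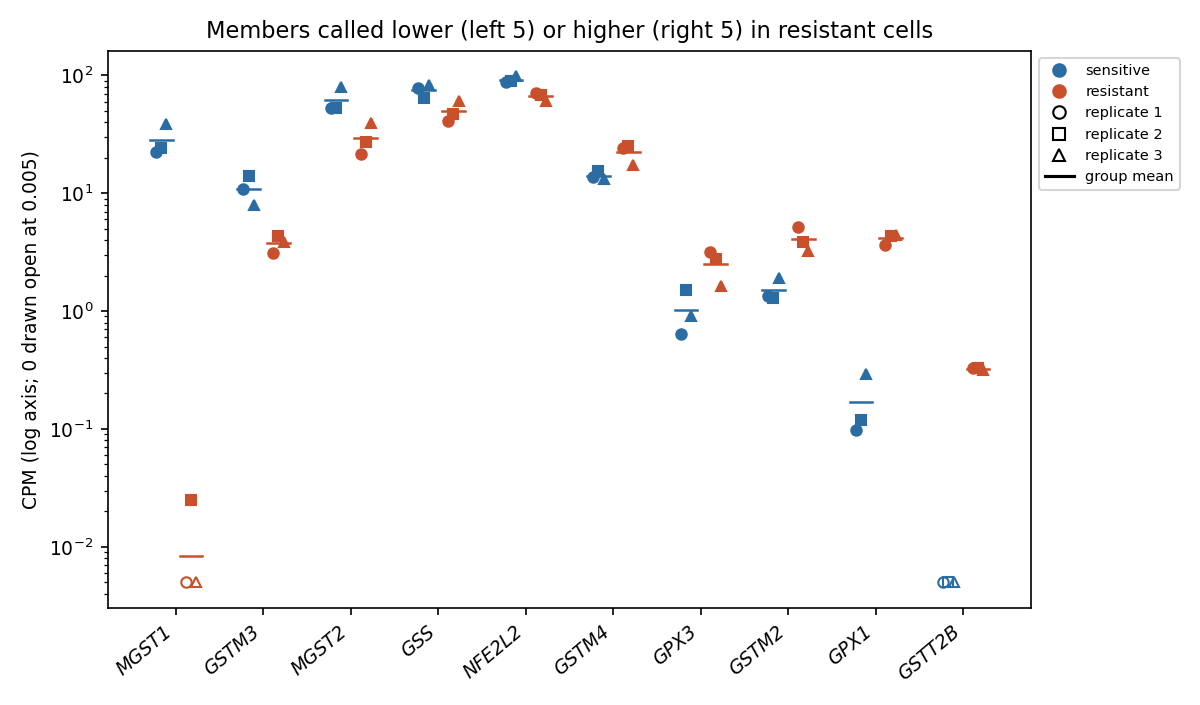
CPM of the 10 called members in each library, on a log axis, with 0 drawn as an open symbol at 0.005. Sensitive libraries are blue, resistant ones red, symbol shape gives the replicate number and short lines are group means. MGST1 falls from 22.5 to 38.7 CPM to at most 0.0251 CPM, GPX1 rises from at most 0.295 CPM to at least 3.63 CPM, and GSTT2B is at 0 in the sensitive libraries.

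Without both libraries numbered 3, the counts were 6 higher (15% of the 40 tested members) and 13 lower (32.5%), beside 21.2% and 22.9% of the 21908 genes tested in that fit. The 10 members named above kept their calls there, and GPX2 joined the higher and MGST3, GSTO1, GPX8, TXNRD1, PRDX5, PRDX6, CAT and OSGIN1 the lower ones. Leaving out only resistant replicate 3 gave 5 higher (12.2% of 41) and 12 lower (29.3%), beside 14.8% and 16.5% of all genes. Without sensitive replicate 1 the counts were 2 and 3, and without sensitive replicate 2 they were 4 and 3. Without sensitive replicate 3 they were 3 and 4, without resistant replicate 1 they were 4 and 3, and without resistant replicate 2 they were 3 and 2. In these 5 fits, 4.84% to 8.23% of all genes tested were called higher and 7.76% to 12.2% lower. The number of calls therefore rested on which libraries entered, while MGST1, GSTM3, GSTT2B and GPX1 kept their calls in each of the 6 fits that left out 1 library, called leave-outs here.

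The 3 microsomal GSTs are small membrane proteins. MGST1 joins glutathione to lipophilic compounds and reduces lipid peroxides in the endoplasmic reticulum and outer mitochondrial membrane. MGST1 (ENSG00000008394) was at 22.5, 24.1 and 38.7 CPM in sensitive replicates 1, 2 and 3 and at 0, 0.0251 and 0 CPM in the resistant ones. These are 3167 counts over the sensitive libraries against 1 count over the resistant libraries. RNA from this gene was thus plentiful in each sensitive library and nearly undetected in each resistant one. The ratio of the sums was 3238, with an exact 95% interval of 581 to 127940 that covers counting error only. The fitted log2 fold change was -11.20 (SE 0.52, edgeR adjusted p = 1.37e-06), which for so few counts depends on the prior count and is no bound. It was the fourth lowest of the 20891 fold changes, and -10.47 without both libraries numbered 3.

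MGST1 lies on chromosome 12 at 16347142 to 16609259 on the plus strand of GRCh38, and none of its annotated exon bases overlap another gene. The 250 bases before its RefSeq start, chr12:16347395-16347644 (GRCh38.p14, plus strand), are shown because MGST1 had the most negative log2 fold change of the set. Capitals mark CG dinucleotides, the sites that DNA methyltransferases modify, and there are 12.
MGST1: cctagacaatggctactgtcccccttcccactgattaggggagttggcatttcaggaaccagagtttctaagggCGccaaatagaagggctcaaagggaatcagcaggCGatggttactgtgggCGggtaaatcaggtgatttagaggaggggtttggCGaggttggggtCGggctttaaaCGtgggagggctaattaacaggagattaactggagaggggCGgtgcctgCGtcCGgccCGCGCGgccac
In the window of 300 bases that also takes in the first 50 after the start, MGST1 had 18 CG dinucleotides. The median was 23 over the 35 members with a RefSeq window and 14 over all 35116 windows, of which 96.0% held at least 1. DNA methylation was not analysed here.

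Of the markers of other cells, the summed lymphoid list was lower where MGST1 was lower. Its summed level over 8 genes was 23.1 to 115 CPM in sensitive cells and 2.07 to 2.59 CPM in the resistant libraries. Most of it was CD3D, a chain of the T cell receptor complex, at 28.2, 18.5 and 95.2 CPM and then at 1.91, 2.36 and 1.57 CPM. Of the 8, CD3D, CD3E, CD3G and CD79B were called lower, CD79A was not called, CD2 and PAX5 were at no more than 0.0601 CPM in any library, and MS4A1 was at 0 in each. Whether any lymphoid cells were present, and what part they had in the MGST1 result, was not tested. The summed level of 10 fibroblast, epithelial and hepatocyte markers was 115 to 134 CPM in sensitive cells and 107 to 131 CPM in the resistant libraries. Most of it was EPCAM, and of the others CDH1 and COL1A2 were called higher and COL3A1 lower.

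MGST2, which conjugates glutathione to leukotriene A4 and other lipophilic compounds, was at 52.6, 52.4 and 79.4 CPM in the sensitive libraries. In the resistant libraries it was at 21.4, 27.2 and 39.1 CPM. Each resistant library lay below each sensitive one, and replicate 3 was the highest of each group. Its log2 fold change was -1.07 (SE 0.25, edgeR adjusted p = 0.0121), and -1.12 without both libraries numbered 3. The call was lost without resistant replicate 2 (adjusted p = 0.0705). MGST3, the third of the family, was at 52.6 to 59.8 CPM against 37.3 to 46.0 CPM, groups that did not overlap. Its log2 fold change of -0.41 (SE 0.15) did not pass the test (edgeR adjusted p = 0.0738), but did without both libraries numbered 3 (-0.43, adjusted p = 0.00854) and without resistant replicate 3 (-0.49, 0.0334). The 3 genes together summed to 146 ± 27.9 CPM (SD, n = 3) in sensitive and 71.4 ± 13.2 CPM in resistant cells. Their coding sequences share 47.2% to 48.8% of aligned positions, with no identical run longer than 9 bases.

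**Figure D2:**
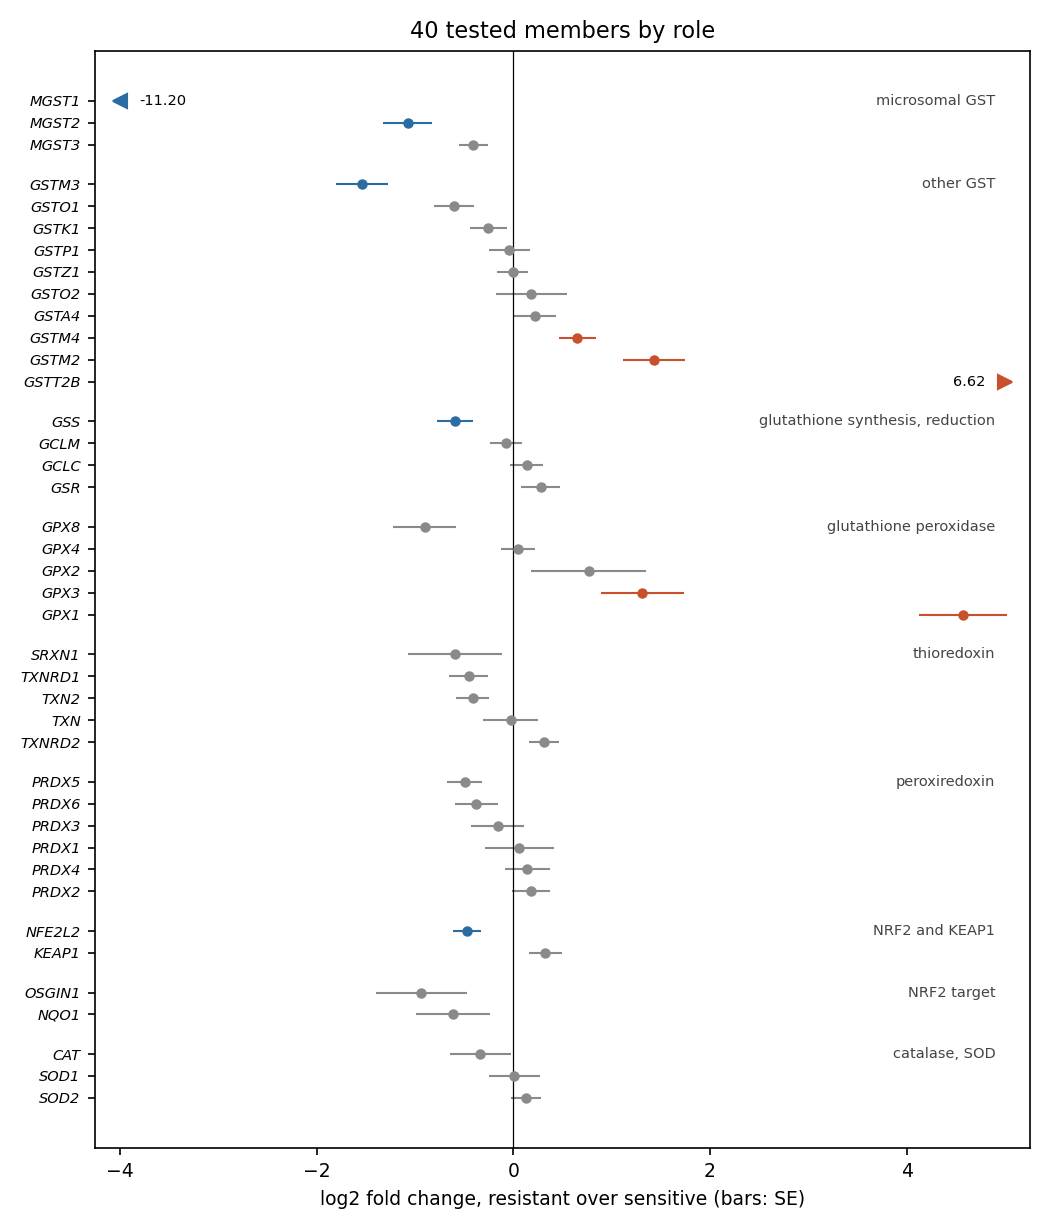
Log2 fold change, resistant over sensitive, of the 40 tested members by role, with the SE as bars. Red is higher, blue lower and grey not called, and arrowheads stand for MGST1 (-11.20) and GSTT2B (6.62), which lie off the axis. The 3 microsomal GSTs are all negative, while the other GSTs and the glutathione peroxidases hold called genes or large values of both signs.

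Of the 12 other GSTs listed, 10 were tested, 3 (30%) were higher, 1 (10%) was lower and 6 were not called. Over all tested genes, 9.83% were called higher and 13.1% lower. The calls fell in the mu class, a cluster of neighbouring genes on chromosome 1, and in the theta class. GSTM2, a cytosolic mu-class enzyme best known in muscle and brain, was at 1.34, 1.29 and 1.90 CPM in sensitive cells and at 5.20, 3.85 and 3.23 CPM in the resistant libraries. Each resistant library lay above each sensitive one. The fitted log2 fold change came to 1.43 (SE 0.32, edgeR adjusted p = 0.00940). Without sensitive replicate 1 the adjusted p was 0.0529, and without both libraries numbered 3 the log2 fold change was 1.76.

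GSTM3, the mu-class enzyme of testis and brain, went the other way. It was at 10.9, 14.1 and 7.93 CPM in sensitive cells and at 3.13, 4.30 and 3.88 CPM in the resistant libraries, again with no overlap. edgeR put the log2 fold change at -1.54 (SE 0.26, edgeR adjusted p = 0.00255). The call held in each of the 17 alternatives tried at the same threshold, with values from -1.76 to -1.34. GSTM4, whose protein also takes part in leukotriene synthesis, was at 13.8, 15.3 and 13.3 CPM in the sensitive libraries. In the resistant libraries it was at 24.3, 24.9 and 17.4 CPM. The resistant libraries lay above the sensitive ones, with replicate 3 the lowest of each group. The log2 fold change was 0.65 (SE 0.19, edgeR adjusted p = 0.0305), and 0.74 without both libraries numbered 3. The call was lost without sensitive replicate 1 (0.120), 2 (0.0791) or 3 (0.0681) and without resistant replicate 1 (0.0862) or 2 (0.146). GSTM1 had no count in any library, which allows up to 0.0909 CPM. GSTM5 had 1, 0 and 0 counts in sensitive cells and 2, 0 and 3 in the resistant libraries. On the same strand, other genes cover 22.3% of the exon bases of GSTM1, 10.2% of GSTM2 and 6.53% of GSTM4. Coding sequences are 81.4% identical between GSTM2 and GSTM4, with an identical run of 78 bases, and 88.1% between GSTM4 and GSTM5, with 118. Reads could have been split between these genes or discarded, so their separate values and the limit for GSTM1 are uncertain. GSTM3 has no such overlap, and its identical runs with the others are at most 26 bases.

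GSTM2 and GSTM3 lie 24.4 kb apart on opposite strands and changed in opposite directions. The 250 bases before the RefSeq start of each are shown to set the pair side by side, chr1:109667807-109668056 (plus strand) for GSTM2 and chr1:109741039-109741288 (minus strand) for GSTM3, GRCh38.p14, with CG dinucleotides in capitals.
GSTM2: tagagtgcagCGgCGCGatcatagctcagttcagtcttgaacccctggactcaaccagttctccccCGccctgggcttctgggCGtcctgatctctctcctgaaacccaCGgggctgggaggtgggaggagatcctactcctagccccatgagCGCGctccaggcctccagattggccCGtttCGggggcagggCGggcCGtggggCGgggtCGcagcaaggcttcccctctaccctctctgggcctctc
GSTM3: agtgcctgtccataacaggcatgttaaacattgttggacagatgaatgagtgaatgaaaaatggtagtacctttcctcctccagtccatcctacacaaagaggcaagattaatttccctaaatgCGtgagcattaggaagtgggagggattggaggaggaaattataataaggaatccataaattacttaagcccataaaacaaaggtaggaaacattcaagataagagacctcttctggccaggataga
The stretch before GSTM2 holds 14 CG dinucleotides and that before GSTM3 holds 1. In the windows of 300 bases, GSTM4 had 21, GSTM2 17 and GSTM3 1. Of all windows, 11.0% had at most 1. Of the 35 members with a window, GSTM3 alone did (2.86%).

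The genes around the mu-class cluster mostly had positive fold changes. Within 500 kb of GSTM4 on either side, 21 protein-coding genes were tested. Of these, 18 had a positive log2 fold change. Called higher were 9, GSTM2 and GSTM4 among them, and 1, GSTM3, was lower, beside 9.83% and 13.1% of all tested genes. The median over the 21 was 0.80, beside 0.03 over all tested genes. The other 2 genes with a negative value were SARS1 (-0.22) and MYBPHL (-0.03), neither called. The nearest tested neighbours outside the family were AMPD2, an AMP deaminase, which was higher (0.91, SE 0.15, edgeR adjusted p = 0.00225), and EPS8L3, at 2.26 (SE 0.81) and not called (edgeR adjusted p = 0.0720). CSF1, beyond EPS8L3, was not called either (0.59, SE 0.25, edgeR adjusted p = 0.115). Neighbouring genes share a stretch of chromosome and are not independent. Gene copy number was not analysed here.

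Around MGST1 the values were mostly negative. Of 13 tested protein-coding genes within 2 Mb, MGST1 included, 11 had a negative log2 fold change. This window is wider than the 500 kb taken around GSTM4, and both were placed on called members. The median over the 13 was -0.32, beside 0.03 over all tested genes. Called lower were 6, MGST1 among them, beside 13.1% of all tested genes. The lower ones besides MGST1 were LMO3 (-7.61), EPS8 (-4.22), ARHGDIB (-3.54), C12orf60 (-1.23) and DERA (-0.92). LMO3 overlaps the MGST1 gene span on the opposite strand, and its level was 0.647 ± 0.0523 CPM (SD, n = 3) in sensitive cells with no count in resistant cells, so that its fitted value is no bound. The next gene below MGST1 in position, DERA, was at 17.2 ± 6.87 CPM against 9.06 ± 1.91 CPM. Its call was lost without sensitive replicates 2 or 3 or resistant replicates 1 or 2 (adjusted p up to 0.139), and that of C12orf60 in each leave-out except resistant replicate 3 (up to 0.184). STRAP, on the far side of DERA from MGST1, did not pass the test (-0.04, edgeR adjusted p = 0.926). PLEKHA5, the tested gene after LMO3 above MGST1 in position, lies outside the window, 2520 kb away. It was lower (-0.96, SE 0.15, edgeR adjusted p = 0.00158).

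**Figure D3:**
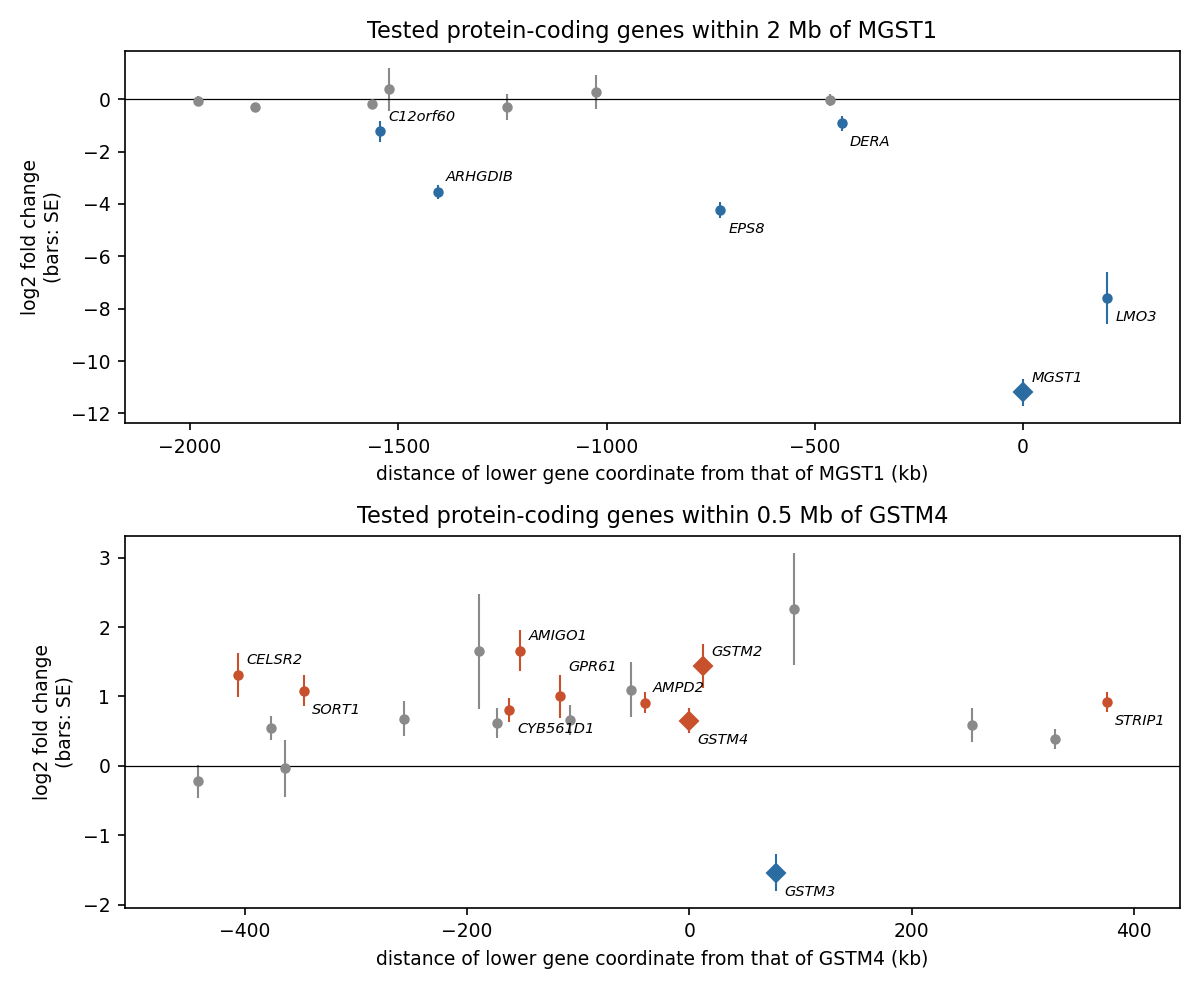
Log2 fold change with its SE for the tested protein-coding genes within 2 Mb of MGST1 (upper) and within 0.5 Mb of GSTM4 (lower), against the distance in kb between the genes' lower coordinates. Red is higher, blue lower, grey not called, and diamonds are members. In the upper panel 11 of 13 genes lie below 0, and in the lower panel 18 of 21 lie above 0 while GSTM3 is at -1.54.

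GSTT2B, a theta-class GST on chromosome 22, had 0 counts in each sensitive library and 12, 13 and 12 counts in the resistant ones. In CPM these are 0.332, 0.327 and 0.315, about 4 times the level of 3 counts. The groups did not overlap, and the sum was at least 12.1-fold higher in resistant cells, taking 3 counts over the sensitive group as the floor. edgeR's adjusted p was 0.00436, and 0.00157 without both libraries numbered 3. The neighbouring gene GSTT2, listed among the pathway genes, had 0 counts in sensitive cells and 72 in the resistant libraries and was at least 23.5-fold higher (edgeR adjusted p at most 0.0106 in each leave-out). The coding sequences of these 2 genes are 99.7% identical over 732 bases with an identical run of 351, so reads could have been split between them or discarded. Their separate values are uncertain, and both were listed at 0 counts in each sensitive library.

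GSTP1, the pi-class enzyme and the main cytosolic GST of many cancer lines, was the most abundant member per length. It was at 548, 553 and 672 CPM in sensitive cells and 457, 595 and 674 CPM in the resistant libraries, which overlapped. Per kilobase of exon its mean was 309 CPM in sensitive and 301 CPM in resistant cells, ahead of PRDX5 (220 and 156) and PRDX1 (168 and 175). Its log2 fold change of -0.04 (SE 0.21) did not pass the test (edgeR adjusted p = 0.911). GSTO1, an omega-class enzyme that reduces dehydroascorbate, was at 203 to 223 CPM against 107 to 182 CPM, groups that did not overlap. Its value of -0.60 (SE 0.20) just missed the threshold (edgeR adjusted p = 0.0594), and 7 of 17 alternatives called it, among them the fits without resistant replicate 3 and without both libraries numbered 3. GSTA4, which conjugates the lipid peroxidation product hydroxynonenal, GSTK1 of mitochondria and peroxisomes, GSTO2 and GSTZ1, an enzyme of tyrosine breakdown, had values between -0.25 and 0.22 and were not called.

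The 4 genes that make and recycle glutathione gave 1 call (25%), which was lower, beside 13.1% of all tested genes. GSS, glutathione synthetase, adds glycine in the last step of synthesis. It was at 78.4, 64.9 and 82.8 CPM in sensitive cells and at 41.1, 47.3 and 61.1 CPM in resistant cells. The highest resistant library lay just below the lowest sensitive one. Its log2 fold change was -0.60 (SE 0.18, edgeR adjusted p = 0.0406), and -0.71 without both libraries numbered 3. The call was lost without sensitive replicate 1 (0.126), 2 (0.0554) or 3 (0.121) and without resistant replicate 1 (0.133) or 2 (0.181). It was also lost with relative log expression (RLE) size factors (0.0549), library totals alone (-0.43, 0.0981), the length and GC offsets (0.0749) and without the most abundant features (0.0519), so that 8 of 17 alternatives kept it. GCLC, the catalytic subunit of the first and rate-limiting enzyme, was at 18.3, 22.2 and 20.1 CPM against 20.3, 21.0 and 25.3 CPM. Its modifier subunit GCLM was at 30.5, 30.4 and 23.3 CPM against 27.5, 25.4 and 27.2 CPM. Both overlapped between groups, with log2 fold changes of 0.14 (SE 0.17, edgeR adjusted p = 0.593) and -0.07 (SE 0.16, edgeR adjusted p = 0.792), and the sign for GCLM turned with upper quartile factors (0.0044), library totals alone (0.09) and the length and GC offsets (0.13). GSR, which reduces oxidised glutathione, was at 108 to 130 CPM against 115 to 182 CPM and was not called (0.28, edgeR adjusted p = 0.343). Together the 4 genes summed to 240 ± 14.7 CPM (SD, n = 3) in sensitive and 240 ± 49.1 CPM in resistant cells.

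Of the 6 glutathione peroxidases, 5 were tested, 2 (40%) were higher, beside 9.83% of all tested genes, and 3 were not called. GPX1 is the main cytosolic selenium enzyme of most cells and is well known in red cells. GPX1 (ENSG00000233276) had 4, 4 and 11 counts in sensitive cells and 131, 174 and 169 counts in the resistant libraries. In CPM it was at 0.0978, 0.120 and 0.295 against 3.63, 4.38 and 4.43, with each resistant library more than 10 times each sensitive one. The fitted log2 fold change came to 4.58 (SE 0.45, edgeR adjusted p = 8.92e-05), and 5.16 without both libraries numbered 3. The call held in each of 17 alternatives, with values from 4.26 to 5.21. The level in the sensitive libraries was close to that of 3 counts, and per kilobase of exon its mean was 0.119 CPM in sensitive and 2.90 CPM in resistant cells, beside 83.9 and 86.6 CPM for GPX4.

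GPX1 lies on chromosome 3 at 49357171 to 49358600 on the minus strand. No annotated exon base of it is shared with another gene in GENCODE 29. The authors' annotation release is not given in the sources used here, and in these counts a gene whose exons lie inside another gene of the same strand has few or no counts. Of 308 protein-coding genes with over 95% of their exon bases in such a gene, 99.7% were below 1 CPM, beside 45.4% of 11110 with no overlap. Whether GPX1 is affected in the release used was not tested. RHOA, which begins 0.545 kb away on the same strand, was at 316 ± 38.7 CPM (SD, n = 3) against 288 ± 47.9 CPM and was not called (-0.13, edgeR adjusted p = 0.648). The 250 bases before the RefSeq start of GPX1, chr3:49358354-49358603 (GRCh38.p14, minus strand), are shown because its log2 fold change was the highest of the set after GSTT2B, with 20 CG dinucleotides in capitals.
GPX1: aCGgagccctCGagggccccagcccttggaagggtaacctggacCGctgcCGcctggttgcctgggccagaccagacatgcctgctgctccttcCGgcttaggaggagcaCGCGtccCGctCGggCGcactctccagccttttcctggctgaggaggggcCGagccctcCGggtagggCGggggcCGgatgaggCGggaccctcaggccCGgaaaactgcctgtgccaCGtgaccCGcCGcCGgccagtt
Like those of MGST1, GSTM2 and GSTM3, this stretch holds no match to the NRF2 motif described further on, which says only that those letters are not in the window.

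GPX3, the secreted plasma enzyme, was at 0.635, 1.50 and 0.911 CPM in sensitive cells and 3.18, 2.74 and 1.63 CPM in resistant cells. The groups did not overlap, but sensitive replicate 2 and resistant replicate 3 lay close together. edgeR put the log2 fold change at 1.31 (SE 0.42, edgeR adjusted p = 0.0488), and 1.47 without both libraries numbered 3. The call was lost without sensitive replicates 1 (0.179) or 3 (0.106) and without resistant replicates 1 (0.141) or 2 (0.148). GPX4, which reduces lipid peroxides in membranes and guards against ferroptosis, was at 162, 172 and 174 CPM against 139, 185 and 201 CPM. These overlapped, with a log2 fold change of 0.05 (SE 0.18, edgeR adjusted p = 0.874) whose sign turned without both libraries numbered 3 (-0.06). GPX2, the gastrointestinal enzyme, was at 0.77 (edgeR adjusted p = 0.385) and GPX8, of the endoplasmic reticulum, at -0.90 (edgeR adjusted p = 0.0704; called lower in 5 of 17 alternatives). GPX7, also of the endoplasmic reticulum, was below the filter with 4, 14 and 16 counts in sensitive cells and 2, 4 and 0 in the resistant libraries. Its ratio was 5.79, with an exact 95% counting interval of 2.40 to 16.9.

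In the thioredoxin system, 0 of 5 genes were called by edgeR, and 2 had an unadjusted p below 0.05. Of all 20891 tested genes, 7503 had such a p, and 9.83% were called higher and 13.1% lower. TXNRD1, the cytosolic selenoenzyme that reduces thioredoxin, was at 302, 296 and 360 CPM in sensitive cells and at 192, 221 and 288 CPM in resistant cells. The groups did not overlap, although resistant replicate 3 came within a few per cent of the lowest sensitive library. The log2 fold change was -0.45 (SE 0.20, edgeR adjusted p = 0.128), and was called without resistant replicate 3 (-0.65) and without both libraries numbered 3. TXN, thioredoxin itself, was at 138 to 220 CPM against 117 to 238 CPM (-0.03, edgeR adjusted p = 0.956). The mitochondrial pair had opposite signs, with TXN2 at -0.41 (edgeR adjusted p = 0.110) and TXNRD2 at 0.31 (edgeR adjusted p = 0.179). SRXN1, which repairs overoxidised peroxiredoxins, was at 0.723 to 1.05 CPM against 0.341 to 0.930 CPM, and 85.0% of its exon bases lie in another gene of the same strand, so its counts are uncertain.

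Of the 6 peroxiredoxins, 0 were called by edgeR and 1, PRDX5, had an unadjusted p below 0.05. Such a p was found for 7503 of all 20891 tested genes, of which 9.83% were called higher and 13.1% lower. PRDX5, found in mitochondria, peroxisomes and cytosol, was at 177 to 210 CPM against 111 to 158 CPM without overlap (-0.49, SE 0.18, edgeR adjusted p = 0.0745). PRDX6, the 1-cysteine form that also acts as a phospholipase, was at 322 to 384 CPM against 212 to 361 CPM (-0.38, edgeR adjusted p = 0.252). PRDX1 and PRDX2 of the cytosol, the mitochondrial PRDX3 and PRDX4 of the endoplasmic reticulum had values between -0.16 and 0.18. Replicate 3 was the highest library of both groups for 5 of the 6. PRDX1 showed this most, at 182, 180 and 404 CPM in sensitive cells and 187, 236 and 377 CPM in resistant cells. The spread between replicates was thus larger than the difference between groups, and 24.9% of its exon bases lie opposite another gene.

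**Figure D4:**
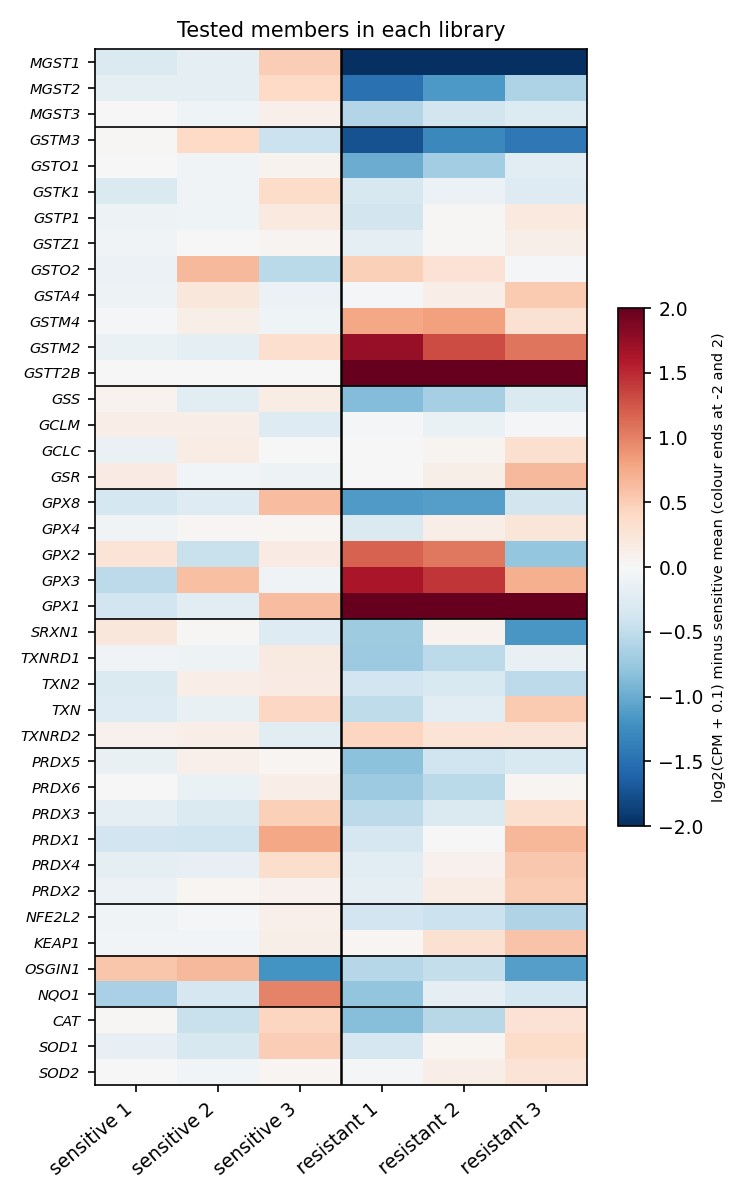
Each tested member's log2(CPM + 0.1) minus its sensitive mean, by library, with colour ending at -2 and 2. Rows are grouped by role and a vertical line parts the groups. Sensitive 3 and resistant 3 are redder than the other libraries of their group for most rows, with the peroxiredoxins among them, and MGST1, GSTT2B and GPX1 hold the end colours in each resistant library.

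NFE2L2, the gene of NRF2, was slightly lower in resistant cells. It was at 87.1, 89.8 and 98.7 CPM in sensitive cells and at 70.5, 68.1 and 60.3 CPM in the resistant libraries, with a gap between the groups. Its log2 fold change was -0.47 (SE 0.14, edgeR adjusted p = 0.0390), and -0.37 without both libraries numbered 3. The call was lost without sensitive replicate 1 (0.0900), 2 (0.0995) or 3 (0.0752) and without resistant replicate 1 (0.0672) or 2 (0.146). It was also lost with library totals alone (-0.29, 0.150), upper quartile factors (-0.39, 0.0700), no filter (-0.49, 0.0752) and the length and GC offsets (-0.36, 0.126), so that 8 of 17 alternatives kept it. Of its exon bases, 20.9% overlap other genes. KEAP1 was at 51.1, 51.3 and 57.4 CPM against 54.6, 66.0 and 79.5 CPM, which overlapped, and was not called (0.32, SE 0.17, edgeR adjusted p = 0.198), although it was higher with library totals alone (0.49, 0.0417).

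Of the 3 members listed as NRF2 targets, NQO1 and OSGIN1 did not pass the test and HMOX1 was not tested in the main fit. NQO1, a quinone reductase often used as a readout of NRF2, was at 26.4, 32.8 and 83.0 CPM in sensitive cells and 24.1, 36.2 and 32.7 CPM in the resistant libraries. Sensitive replicate 3 alone was high, and the log2 fold change of -0.61 (SE 0.38, edgeR adjusted p = 0.279) became 0.06 without it and 0.02 without both libraries numbered 3. Without the filter on low counts edgeR called it lower (-0.63, adjusted p = 0.0117). Of the NQO1 exon bases, 17.7% lie opposite another gene. HMOX1, inducible haem oxygenase, had 2, 0 and 0 counts in sensitive cells and 4, 14 and 10 in the resistant libraries and was below the filter. Its ratio was 13.7, with an exact 95% counting interval of 3.45 to 119, and without the filter edgeR called it higher (adjusted p = 0.0344). OSGIN1, an oxidative stress-induced growth inhibitor, was at 1.37 to 5.17 CPM against 1.47 to 2.31 CPM and was not called (-0.94, edgeR adjusted p = 0.179), but was lower with no filter (0.0458), without sensitive replicate 3 (-1.35, 0.0122) and without both libraries numbered 3 (-1.17, 0.00124).

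NRF2 binds the antioxidant response element as a dimer with a small MAF protein. The letters TGACNNNGC of that element were searched on both strands of the 300-base RefSeq windows, and 8 of 35 members (22.9%) held a match, beside 13.3% of all 35116 windows. The matches were in 0 of the 4 higher, 0 of the 3 lower, 6 of the 25 uncalled and 2 of the 3 untested members with a window. The called members with a window are too few for these shares to be compared. No match was held by NQO1, GCLC or SRXN1, which were not called. The sites of GSTP1 (chr11:67583726-67583774, plus strand), GCLM (chr1:93909436-93909484, minus strand) and TXNRD1 (chr12:104215660-104215708, plus strand) are shown because these are 3 targets often named for NRF2 that were not called. Capitals mark the match.
GSTP1: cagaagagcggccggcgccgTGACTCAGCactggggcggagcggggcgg
GCLM: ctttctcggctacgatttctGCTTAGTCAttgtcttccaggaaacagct
TXNRD1: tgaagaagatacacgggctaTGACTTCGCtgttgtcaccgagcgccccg
The match shown begins 66, 34 and 99 bases before the start, and in GCLM it reads on the opposite strand. TXNRD1 has a further match, not shown, that begins 8 bases before the start on the opposite strand. A match describes the letters and is no evidence of binding.

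Catalase and the superoxide dismutases did not pass the test, and none had an unadjusted p below 0.05 in the edgeR fit. CAT, which breaks down hydrogen peroxide in peroxisomes, was at 144, 104 and 190 CPM against 78.0, 96.1 and 173 CPM, overlapping, with replicate 3 the highest of each group (-0.33, SE 0.31, edgeR adjusted p = 0.474). SOD1, the cytosolic copper and zinc enzyme, was at 271, 245 and 427 CPM against 241, 313 and 395 CPM. The fitted log2 fold change came to 0.01 (SE 0.26, edgeR adjusted p = 0.982), and its sign turned when resistant replicate 3 (-0.20), sensitive replicate 1 (-0.11) or sensitive replicate 2 (-0.16) was left out. SOD2, the mitochondrial manganese enzyme, was at 146, 141 and 150 CPM against 143, 159 and 177 CPM (0.13, SE 0.15, edgeR adjusted p = 0.582). The sensitive libraries were close together, and the lowest resistant library lay among them.

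The wider pathway was read from 5 lists of 110 other genes with an ID, of which 93 were tested. By edgeR, 10 (10.8%) were higher and 22 (23.7%) lower, beside 9.83% and 13.1% of all tested genes, with a median log2 fold change of -0.17. Without both libraries numbered 3 these counts were 17 (18.1% of 94) and 41 (43.6%), beside 21.2% and 22.9% of all genes. Without resistant replicate 3 they were 9 (9.47% of 95) and 34 (35.8%), beside 14.8% and 16.5%, and without resistant replicate 2 they were 2 (2.13% of 94) and 9 (9.57%), beside 4.86% and 7.76%. They were 3 (3.19% of 94) and 15 (16.0%) without sensitive replicate 1, beside 4.84% and 8.51% of all genes. Leaving out sensitive replicate 2 gave 4 (4.26% of 94) and 13 (13.8%), beside 5.29% and 8.58%. Leaving out sensitive replicate 3 gave 9 (9.57% of 94) and 18 (19.1%), beside 8.23% and 12.2%. For resistant replicate 1 they were 5 (5.38% of 93) and 14 (15.1%), beside 6.30% and 9.94%.

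Of 25 tested genes of glutathione turnover and cysteine supply, 1 (4%) was higher and 5 (20%) were lower. The shares over all tested genes were 9.83% and 13.1%. HAGH, a glyoxalase that frees glutathione, was lower at 28.9 ± 4.29 CPM against 16.2 ± 1.32 CPM (SD, n = 3; log2 fold change -0.83, edgeR adjusted p = 0.00646). The dipeptidases that split the glutathione breakdown product cysteinylglycine moved apart, with DPEP2 lower (-1.85, 0.0166) and DPEP1 higher (2.35, 0.0255), both below 2.5 CPM in each library. SLC3A2 and SLC7A11, the heavy and light chains of the cystine importer, were lower. SLC3A2 was at 409, 423 and 471 CPM against 172, 190 and 315 CPM, and SLC7A11 at 197, 183 and 160 CPM against 68.0, 75.6 and 143 CPM. Resistant replicate 3 lay nearest to the sensitive libraries for both. Their log2 fold changes were -0.95 (SE 0.24, edgeR adjusted p = 0.0189) and -0.91 (SE 0.27, edgeR adjusted p = 0.0339). CTH, which makes cysteine from cystathionine, was lower as well (-1.38, SE 0.40, edgeR adjusted p = 0.0332). These 3 calls were each lost in every leave-out except that of resistant replicate 3, with adjusted p up to 0.122 for SLC3A2, 0.164 for SLC7A11 and 0.137 for CTH, and without both libraries numbered 3 their values were -1.22, -1.42 and -1.93. The calls of DPEP1 and DPEP2 were lost in 4 and 3 of the 6 leave-outs (up to 0.107 and 0.0770), that of HAGH in 0.

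Among 6 tested other GST and peroxidase genes, GSTA2 and CLIC1 were lower (33.3%) and GSTT2 higher (16.7%), beside 13.1% and 9.83% of all tested genes. GSTA2, an alpha-class GST of liver, was at 4.06, 3.07 and 4.66 CPM against 0.332, 0.352 and 0.341 CPM, without overlap. edgeR put the log2 fold change at -3.51 (SE 0.35, edgeR adjusted p = 8.74e-05), from -3.68 to -3.38 in the leave-outs. Its coding sequence is 96.7% identical to that of GSTA1, which had 8 and 4 counts in the groups, so the split of reads between them is uncertain. CLIC1, a protein of GST fold that can form chloride channels, was at -0.87 (SE 0.24, edgeR adjusted p = 0.0262), a call lost in 4 of 6 leave-outs (up to 0.138).

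Of 23 tested NRF2 targets and NADPH-forming enzymes outside the members, 3 were higher and 5 lower. AKR1C3, an aldo-keto reductase that acts on steroids and prostaglandins, was at 4.18, 6.70 and 3.94 CPM in sensitive cells and 49.3, 58.5 and 69.0 CPM in resistant cells. The groups were far apart, with a log2 fold change of 3.58 (SE 0.25, edgeR adjusted p = 9.58e-06) that stayed between 3.43 and 3.84 in the leave-outs. SLC48A1, a haem transporter, was lower at 21.1 ± 4.38 CPM against 10.5 ± 1.38 CPM (SD, n = 3; -1.0, edgeR adjusted p = 0.00606), and kept its call in each leave-out. ABCC3, a conjugate exporter (-2.27, edgeR adjusted p = 0.0160), and BLVRA, biliverdin reductase (-0.81, edgeR adjusted p = 0.0190), each lost the call in 3 of 6 leave-outs (up to 0.0729 and 0.0969). The other calls were the glutathione conjugate exporter ABCC1 (0.98) and AKR1C1 (0.57), which were higher, and PGD (-0.69) and IDH2 (-0.68), which were lower, with 1 or 2 of 6 leave-outs keeping each. Targets of NRF2 therefore had calls of both signs.

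Of 15 genes that control NRF2 and KEAP1 or bind the same DNA element, 3 (20%) were higher and 4 (26.7%) lower. Among all tested genes, 9.83% and 13.1% were. BACH2, a repressor that competes for that element, was at 15.3, 16.1 and 12.3 CPM against 4.60, 3.27 and 2.73 CPM, without overlap (-2.04, SE 0.25, edgeR adjusted p = 0.000328). MAFF, a small MAF partner, was at 7.92, 8.87 and 6.29 CPM against 2.46, 2.19 and 2.99 CPM (-1.59, SE 0.25, edgeR adjusted p = 0.00157). Both kept their calls in each leave-out. NFE2L1, the related factor NRF1, was lower (-0.73, SE 0.14, edgeR adjusted p = 0.00531), a call lost without resistant replicate 2 (0.0578). TRIM21, a ubiquitin ligase, was lower (-0.89, edgeR adjusted p = 0.0178) and kept its call in 3 of 6 leave-outs. GSK3B (0.66), CUL3 (0.55), the scaffold of the KEAP1 ligase, and PGAM5 (0.60) were higher, each in 2 of 6 leave-outs.

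Of 24 other thioredoxin-fold and selenoprotein genes, 2 (8.33%) were higher and 6 (25%) lower, beside 9.83% and 13.1% of all tested genes. TXNIP, which binds and inhibits thioredoxin, was at 1335, 1631 and 894 CPM in sensitive cells and 328, 420 and 412 CPM in resistant cells. The lowest sensitive library was still above the highest resistant one, and the log2 fold change was -1.73 (SE 0.25, edgeR adjusted p = 0.00106; -1.95 to -1.55 in the leave-outs). The sestrins SESN2 (-1.18, SE 0.23, edgeR adjusted p = 0.00505) and SESN3 (-1.75, SE 0.37, edgeR adjusted p = 0.00779), stress-induced regulators of mTORC1, were lower and kept their calls in each leave-out. SESN1 was not called (-0.11, edgeR adjusted p = 0.718). SEPSECS, which makes selenocysteinyl-tRNA, was lower (-0.83, edgeR adjusted p = 0.00880; 0.0665 without resistant replicate 2). The other calls were TXNDC12 (-0.92) and SELENOH (-0.55), lower, and NXN (0.60) and AIFM2 (0.79), which were higher. TXNDC12 lost its call without resistant replicate 2 (0.0624), and the other 3 kept theirs in 2 or 3 of 6 leave-outs. SLC7A11, CTH, ABCC1, AKR1C1, PGD, IDH2, GSK3B, CUL3, PGAM5, SESN1, TXNDC12, SELENOH, NXN and AIFM2 fall outside the rule for naming pathway genes and were named after their values were seen.

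**Figure D5:**
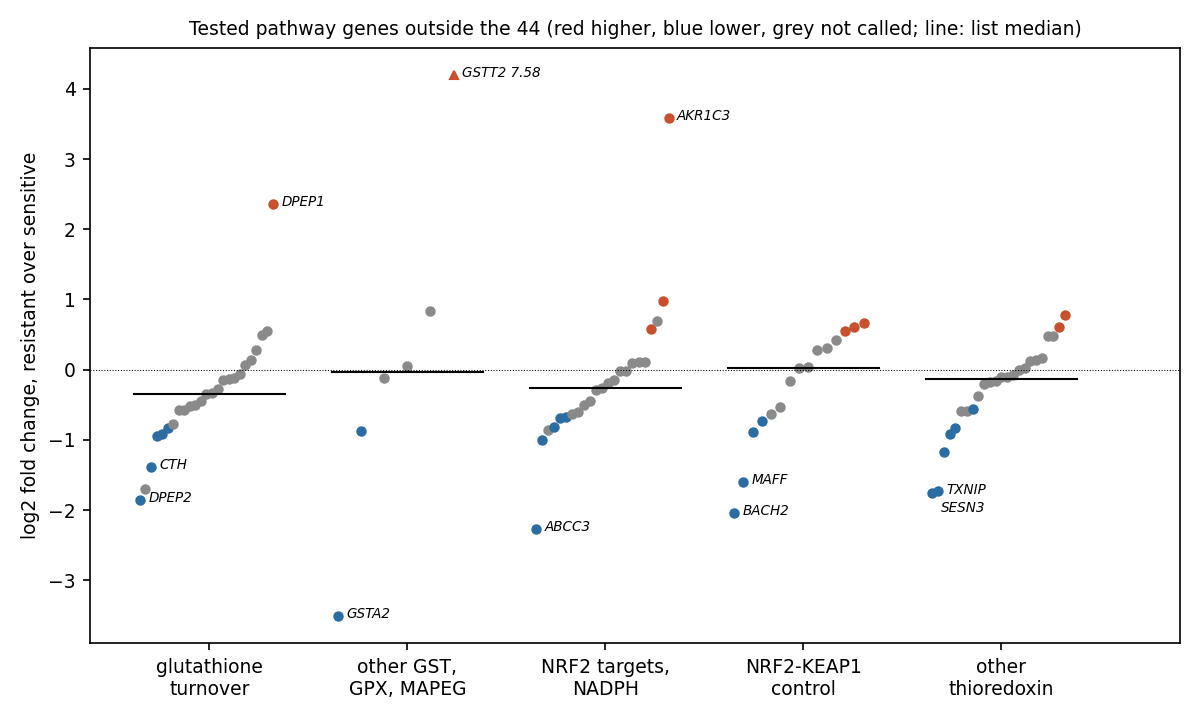
Log2 fold change, resistant over sensitive, of the 93 tested pathway genes outside the 44, by list and sorted within each. Red points are called higher, blue lower and grey not called, black lines are list medians, and the triangle is GSTT2 at 7.58, off the axis. AKR1C3 (3.58) is the highest value within the axis and GSTA2 (-3.51) the lowest.

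The neighbours of the other called members whose log2 fold change was 1 or more in either direction were read in the same way. Next to MGST2, whose 4 neighbours all had negative values, SETD7 was lower (-2.26, SE 0.19, edgeR adjusted p = 3.52e-05) and so was MAML3 (-1.0, edgeR adjusted p = 0.0143, and 0.0524 without sensitive replicate 1), while RAB33B (-0.43) and SCOC (-0.22) were not called. MAML3 overlaps MGST2, and 7.92% of the MGST2 exon bases lie opposite its exons. The strand setting is not given, so whether the 2 genes share reads is uncertain. Next to GPX3, ZNF300 was higher (2.26, edgeR adjusted p = 0.00120), SMIM3 was lower (-2.94, edgeR adjusted p = 3.13e-05) and TNIP1 and ANXA6 were not called. CABIN1 near GSTT2B was higher (0.95, edgeR adjusted p = 0.00617). DDTL, which lies nearer (0.71), SLC2A11 (0.14) and DERL3 (-0.70) were not called. C3orf62 near GPX1 was higher (1.00, edgeR adjusted p = 0.0415), in 1 of 6 leave-outs. USP4, which lies nearer (0.58), TCTA (0.07) and RHOA were not called. In all, 4 of the 23 tested neighbours that are no members were higher and 6 lower, beside 9.83% and 13.1% of all tested genes. They were picked for lying next to called members.

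The protein-coding genes whose profile over the 6 libraries was most like that of MGST1 were ARHGAP15, DAB2, PTPRR, FYB1 and PTPRB. The measure was the Euclidean distance between log2 CPM profiles, each centred on its mean, and it was 0.605, 0.883, 1.11, 1.13 and 1.64. ARHGAP15 was at 45.3, 44.2 and 119 CPM in the sensitive libraries, highest in replicate 3 as MGST1 was, and at no more than 0.101 CPM in the resistant ones. DAB2 and PTPRR had no count in any resistant library. The likeness rests on a plentiful level in one group and a level near 0 in the other.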

How the data were processed

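The values deposited by the authors are whole-number counts for each Ensembl gene ID in 6 libraries. The submitters' processing notes list Trimmomatic 0.39, HISAT2 2.2.1, featureCounts, Subread 2.0.3 and GRCh38. Not given in the sources used here are the annotation release, the strand setting and the unit counted (read or fragment), so overlapping, antisense and near-identical genes are uncertain. Symbols came from a name table (61369 of 61487 IDs) and positions from GENCODE 29 (58312 IDs). SOD2 was named through GENCODE 29, and 1 of 111 pathway entries, GSTT1, matched no ID. Promoters are from RefSeq (GRCh38.p14), where 35 of the 44 members matched.

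Groups were compared by edgeR 4.0.16 (R 4.3.3) over all genes kept by filterByExpr, with TMM factors and the robust two-sided quasi-likelihood test. Benjamini-Hochberg adjustment ran over all 20891 genes. The SE is the size of the log2 fold change divided by the square root of F. Colours and likeness used log2 CPM. The steps were tested on simulated counts. The members and lists were chosen with earlier results of these data known. Named genes were the called members, untested members with 10 or more counts, 11 fixed members, up to 4 called genes per pathway list with the smallest adjusted p, 2 neighbours per side, and the 5 profiles nearest MGST1. Alternatives were DESeq2 1.42.0, limma-voom (limma 3.58.1), other scalings, filters and thresholds, removal of mitochondrial and ribosomal RNA genes with the 10 most abundant features, a replicate block and left-out libraries. Offsets for length and GC content were chosen after seeing the data. Coding sequences were compared in place of proteins. Some cell type markers are not reported here, and the marker counts and sums leave them out.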

Additional observations from a re-analysis of the deposited data

How the results depend on the processing

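For the 19 called or fixed members, 274 recomputed fold changes kept sign and call, 29 lost the call, 7 gained it and 12 changed sign. Members called lower numbered 3 (7.5%) with library totals alone and 8 (18.6%) with no filter, against 5 (12.5%). With offsets for length and GC content they numbered 3 (7.5%). All genes called lower in these fits were 10.1%, 8.81% and 12.2% of those tested, in that order, against 13.1%. At an adjusted p below 0.01, members were 3 higher (7.5%) and 2 lower (5%), and pathway genes 2 (2.15%) and 11 (11.8%). All genes were 938 (4.49%) and 1586 (7.59%). Without both libraries numbered 3, members lower were 13 (32.5%), pathway genes 17 and 41 (18.1% and 43.6%), and all genes 4645 and 5021 (21.2% and 22.9%). Leaving out each library in turn gave 2 to 5 members higher and 2 to 12 lower, 2 to 9 pathway genes higher and 9 to 34 lower, and 1051 to 3327 genes higher and 1677 to 3718 lower. Library totals alone moved the median of all genes from 0.03 to 0.20 and that of the members to 0.14, and called 3041 genes higher and 2118 lower against 2054 and 2741.

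Fold changes that changed sign, none of them called, were those of GCLM (0.0044 with upper quartile factors, 0.091 with library totals alone, 0.13 with the offsets), SOD1 (-0.0075 with no filter), GPX4 (-0.057 without both libraries numbered 3) and NQO1 (0.017 without both). In the leave-outs SOD1 ran from -0.20 to 0.29, GPX4 from -0.085 to 0.19 and NQO1 from -0.92 to 0.063. The causes were not tested.

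Deviations from the group mean correlated at 0.202, 0.0850 and 0.299 between samples with the same number. Between samples with different numbers the correlations ran from -0.312 (sensitive 3 with resistant 1) to 0.230 (sensitive 2 with resistant 1). The labels name no pairing beyond the number, and the main fit used none. Whether samples with the same number were handled together cannot be decided from these values. With the replicate number as a block, 10 members were lower, and 13 pathway genes were higher and 35 lower, beside 2859 (13.7%) and 3582 (17.1%) of all genes. The lower calls were 25% of the members and 37.6% of the pathway genes. At this depth, genes of a few counts such as GSTM5, GPX7 and HMOX1 could not be compared firmly.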
